A study of Homo sapiens with 12 samples.

Results

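The DNA topoisomerase genes TOP1, TOP2A, TOP2B, TOP3A, TOP3B and TOP1MT were followed through RNA sequencing of TC-71, a human cell line of Ewing sarcoma that is wild type by its label. Members were chosen by symbol, and each of the 6 had 1 entry of its own among the 25787 named entries of the table. All 6 passed the minimum that left 14225 entries for testing, an average of 10 or more normalised counts. There were 4 groups of 3 libraries: cells given DMSO for 16 h, cells given the small molecule YK-4-279 for 16 h at a labelled dose of 2 mM, a scrambled transfection control, and a transfection against the RNA helicase DHX9 (siDHX9), the last 2 collected at 48 h. The labels' protocols speak of siRNA and the design text of shRNA. YK-4-279 was developed to keep the fusion protein EWS-FLI1 from binding DHX9, and the design sets the drug beside lowered DHX9. All libraries come from this 1 line, so the spread between replicates is that of cultures of 1 cell line.

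Topoisomerases cut DNA, let strands pass or turn, and reseal the cut, which removes the supercoils and links that transcription, replication and chromosome segregation leave behind. Type IB enzymes (TOP1 in the nucleus, TOP1MT in mitochondria) nick 1 strand, type II enzymes (TOP2A and TOP2B) cut both strands and use ATP, and type IA enzymes (TOP3A and TOP3B) pass single strands through each other. TOP2A is made mainly by dividing cells and peaks before mitosis, while TOP2B is made by dividing and resting cells alike. TOP1 and the type II enzymes are the targets of camptothecins and of etoposide and doxorubicin, drugs that are used against Ewing sarcoma.

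The 2 type II genes, paralogs that fell by different amounts with YK-4-279, are shown first by their promoters. The TOP2A promoter is known for inverted CCAAT boxes, which bind the factor NF-Y, and for GC boxes, which bind SP1 and SP3. The windows are the 250 bases before the RefSeq start, read 5′ to 3′ on the strand of the gene. They are from RefSeq on GRCh38.p14, TOP2A at chr17:40417897-40418146 and TOP2B at chr3:25664908-25665157, both on the minus strand. Capitals mark CCAAT, which is present in both as its reverse complement ATTGG.
TOP2A: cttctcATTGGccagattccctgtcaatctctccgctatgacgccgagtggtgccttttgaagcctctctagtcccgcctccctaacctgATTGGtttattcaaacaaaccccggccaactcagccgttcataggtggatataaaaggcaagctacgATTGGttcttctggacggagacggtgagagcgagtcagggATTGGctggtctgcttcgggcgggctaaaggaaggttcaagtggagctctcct
TOP2B: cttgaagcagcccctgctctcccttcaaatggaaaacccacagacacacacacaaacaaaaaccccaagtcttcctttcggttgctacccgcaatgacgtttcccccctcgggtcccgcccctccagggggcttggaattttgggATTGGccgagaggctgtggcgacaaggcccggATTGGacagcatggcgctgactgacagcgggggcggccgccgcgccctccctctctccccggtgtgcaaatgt
The TOP2A window held 4 copies of CCAAT on either strand, the first bases lying 244, 160, 93 and 53 bases before the start. At least 4 copies were present in 0.874% of 35116 promoter windows of the same length. The TOP2B window held 2 copies, 105 and 73 bases before the start, and 9.53% of windows held at least 2. A second RefSeq window of TOP2B, at chr3:25664373-25664622, held 0 copies, as did those of TOP1, TOP3A and TOP3B. The GC box GGGCGG, read on both strands, occurred once in the TOP2A window, 36 bases before the start, and at 2 places in the TOP2B window shown. At least 1 copy was present in 42.6% of windows and at least 2 in 24.3%. TTTGAA, the core of the element for cell cycle genes that MuvB complexes bind, was present at 2 places in the TOP2A window and at 1 in the TOP2B window, while 1.72% of windows held at least 2 copies and 13.3% at least 1. No bases were shared between these motifs. A match of letters is a description of the window and no evidence of binding. Any link between these motifs and the changes with YK-4-279 was not tested.

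The 12 libraries held between 38568983 and 65547726 reads, both extremes being DMSO libraries. The targeted gene checks the labels: the entry that joins DHX9 with its neighbour NPL was lower after transfection against DHX9 than after the scrambled control (log2 −0.66, limma adjusted p = 4.54e-05), without overlap. All 7 Ewing sarcoma markers were measured, with CD99, the surface antigen used in diagnosis, at a mean of 28091 normalised counts. By limma 1 of the 7 was higher and 0 lower with YK-4-279, and likewise with siDHX9 (13.8% and 16.7% of all entries called). In scrambled libraries 3 of the 7 were lower than in DMSO and 0 higher, where 18.9% of all entries were called. Of the markers of other cells PECAM1 (endothelium) and PTPRC (leukocytes) had means of 0.0833 and 3.67, and the fibroblast genes DCN and LUM had 334.6 and 61.2. CDH5 (endothelium) and EPCAM (epithelium) had 6.02 and 10.2. The 6 such markers summed to between 308.9 and 391.6 counts in DMSO, 304.2 and 390.2 with YK-4-279, 239.5 and 422 in scrambled and 465.8 and 707.6 in siDHX9 libraries, where DCN was higher by log2 1.03 (limma adjusted p = 0.0055). The ribosomal RNA entry took 7.9 to 9.98% of reads with YK-4-279 and 4.95 to 5.44% in DMSO, and 1.76 to 3.59% in siDHX9 against 3.52 to 5.2% in scrambled libraries, beside every result that follows. The part of ribosomal RNA and of these markers in the results was not tested. The values below are normalised read counts, and fold changes are on the scale of log2(count + 1).

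With YK-4-279, 3 of the 6 topoisomerase genes changed by limma, edgeR and DESeq2 alike, TOP2A and TOP2B falling and TOP1MT rising. Of all entries tested, 13.8% were called in this comparison by limma, 6.49% as lower and 7.33% as higher. The libraries of YK-4-279 and DMSO did not overlap for those same 3 genes, as for 43.5% of all entries. The median log2 change of the 6 was 0.04, beside 0.02 over all entries. With siDHX9, 0 of 6 were called by limma and by edgeR, where limma called 16.7% of entries, 8.75% as higher and 7.97% as lower. TOP2A was called by DESeq2, which called 3195 of the 14225 entries. TOP1 and TOP2A had unadjusted limma p values of 0.0261 and 0.0222, and the share of all entries under 0.05 was not counted. For none of the 6 did siDHX9 and scrambled libraries separate, which 29.3% of entries did.

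**Figure D1:**
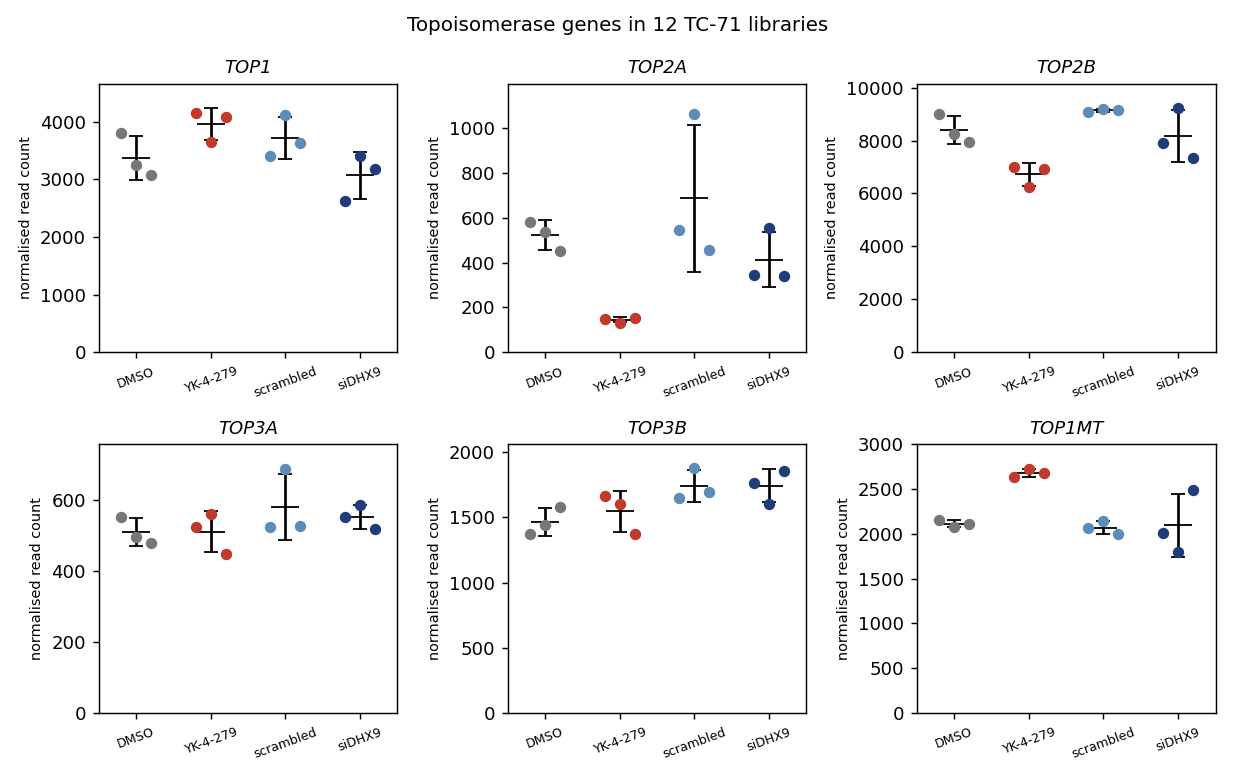
Normalised read count (y axis, from 0) of the 6 topoisomerase genes in the 12 TC-71 libraries by group (x axis). Points are libraries, replicates 1, 2 and 3 from left to right in each group, and bars are the mean ± SD of 3 libraries. The YK-4-279 libraries lie below every other library for TOP2A (132 to 153) and above every other library for TOP1MT (2633 to 2729).

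TOP2A (GSHG0013349, hg19 chr17:38544773-38574202), the type II enzyme that untangles and compacts mitotic chromosomes, had the largest change of the family. It stood at 581, 537 and 452 normalised counts in DMSO replicates 1, 2 and 3. With YK-4-279 it stood at 148, 132 and 153. The highest drug-treated library lay far below the lowest DMSO library. The mean was 523 ± 65.7 in DMSO and 144 ± 11.2 with the drug (SD, n = 3). The fitted fall on the log2(count + 1) scale was 3.60-fold, log2 −1.85 ± 0.26 (SE, 95% interval −2.41 to −1.29, limma adjusted p = 0.000622). Its fitted change ranked 13 from the lowest of 14225. Without each of the 6 libraries in turn the change was between −1.95 and −1.77 and the limma adjusted p between 0.00272 and 0.00482. In bulk RNA, fewer cells making TOP2A and less TOP2A RNA in each cell cannot be told apart.

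In the transfected cells TOP2A was uneven between cultures. Scrambled replicates 1, 2 and 3 held 545, 1063 and 456 normalised counts, and siDHX9 replicates 1, 2 and 3 held 347, 555 and 338. Scrambled replicate 2 was the highest of all 12 libraries, and siDHX9 replicate 2, at 555, lay above 2 of the 3 scrambled libraries. The siDHX9 mean was 413 ± 123 and the scrambled mean 688 ± 328 (SD, n = 3), a log2 difference of −0.67 ± 0.26 (95% interval −1.23 to −0.11, limma adjusted p = 0.0898, unadjusted p = 0.0222). DESeq2 gave an adjusted p of 0.0289. Without scrambled replicate 2 the limma difference was −0.31 (adjusted p = 0.343). Without scrambled replicate 3 or siDHX9 replicate 2 it was −0.92 (adjusted p = 0.0317) and −0.90 (adjusted p = 0.0156). The effects of the drug and of siDHX9 differ in agent, hours and transfection together, and these cannot be told apart. The drug's effect on TOP2A minus that of siDHX9 was log2 −1.18 ± 0.37, with a limma adjusted p of 0.0594 and a DESeq2 adjusted p of 0.0227. With 1 of the 12 libraries left out that difference ran from −1.54 without scrambled replicate 2 (limma adjusted p = 0.0055) to −0.93 without scrambled replicate 3 (0.102). It was called in 2 of these 12 fits, the other one being without siDHX9 replicate 3 (−1.30, 0.0461), and the highest adjusted p was 0.133, without scrambled replicate 1.

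TOP2B (GSHG0021582, hg19 chr3:25639396-25706398), the type II paralog that acts at promoters and during transcription, also fell with YK-4-279, by far less. It held 9002, 8244 and 7956 normalised counts in DMSO replicates 1, 2 and 3. The YK-4-279 replicates held 7012, 6235 and 6932. Every drug-treated library was below every DMSO library, and also below every transfected library. The mean fell 1.25-fold, log2 −0.32 ± 0.09 (95% interval −0.51 to −0.13, limma adjusted p = 0.0272). The call was kept without DMSO replicate 3 (adjusted p = 0.0459) and lost without any other of the 6 libraries. The limma adjusted p was then 0.124 and 0.0722 without DMSO replicates 1 and 2, and 0.0525, 0.125 and 0.0595 without YK-4-279 replicates 1, 2 and 3.

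Scrambled replicates 1, 2 and 3 held 9071, 9180 and 9165 counts of TOP2B, and siDHX9 replicates 7896, 9246 and 7341. Of the siDHX9 libraries, replicate 2 lay above all scrambled libraries and the others below them. The difference was log2 −0.17 ± 0.09 (95% interval −0.36 to 0.02, limma adjusted p = 0.190), and without siDHX9 replicates 2 and 3, each left out alone, it was −0.26 (adjusted p = 0.0221) and −0.10 (0.491). The drug's effect minus that of siDHX9 was −0.15 ± 0.12 (95% interval −0.41 to 0.11, limma adjusted p = 0.467).

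The ratio of the 2 type II genes within a library does not depend on the size factor. Counts of TOP2A were 6.46, 6.52 and 5.68% of those of TOP2B in DMSO and 2.11, 2.11 and 2.21% with YK-4-279. The log2 ratio was lower by 1.53 with the drug, and the 3 treated libraries lay below the 3 controls, where an exact two-sided permutation test gives p = 0.1, the smallest it can give. In scrambled libraries TOP2A was at 6, 11.6 and 4.97% of TOP2B and in siDHX9 libraries at 4.39, 6.01 and 4.61%. The groups overlapped there, with a difference of −0.50 (exact permutation p = 0.3) that was −0.14 without scrambled replicate 2.

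The TOP2A entry shares most of its span with another gene. The RARA entry, for retinoic acid receptor alpha, runs over 22169 bases of it, 75.3% of its length, and the sources used here do not say whether the counting used strand or shared reads. RARA moved the other way: it held 627, 642 and 568 normalised counts in DMSO and 1041, 1039 and 929 with YK-4-279, a rise of log2 0.71 ± 0.12 (limma adjusted p = 0.00215). All 3 drug-treated libraries were above all others for RARA, and below all others for TOP2A. With siDHX9 RARA held 597, 502 and 718 counts and in scrambled libraries 491, 476 and 513, log2 0.28 ± 0.12 (limma adjusted p = 0.123). In the GENCODE 29 annotation of GRCh38 the 2 genes do not overlap and lie 30872 bases apart. The remaining entries that overlap TOP2A are unnamed, with means of at most 0.347.

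**Figure D2:**
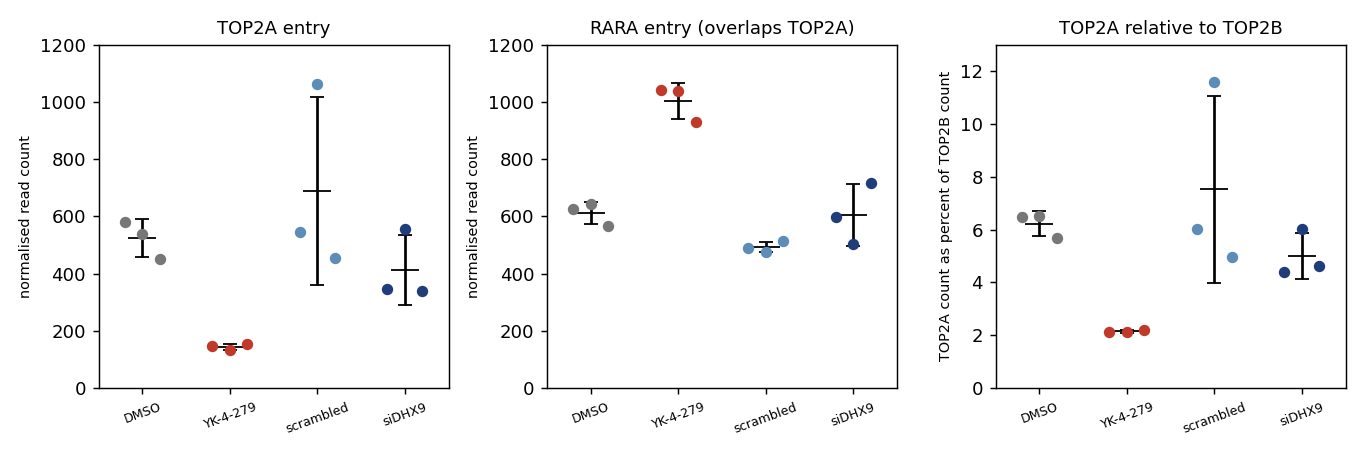
Normalised read counts of the TOP2A and RARA entries, and TOP2A as a percentage of TOP2B, in each of the 12 libraries (points, replicates 1, 2 and 3 from left to right in each group, bars mean ± SD of 3). YK-4-279 libraries are the lowest for TOP2A and the highest for RARA, and their TOP2A to TOP2B ratio is 2.11 to 2.21%.

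TOP1MT (GSHG0029924, hg19 chr8:144391494-144442151), the type IB enzyme that relaxes mitochondrial DNA, rose with YK-4-279. It held 2161, 2078 and 2107 normalised counts in DMSO replicates 1, 2 and 3. The YK-4-279 replicates held 2633, 2729 and 2681, above all 9 other libraries. The rise was 1.27-fold, log2 0.34 ± 0.10 (95% interval 0.13 to 0.56, limma adjusted p = 0.0374). The fold was steady, at 0.33 to 0.36 on the log2 scale with any 1 of the 6 libraries left out, but the call was lost each time. The limma adjusted p was 0.0921, 0.113 and 0.0952 without DMSO replicates 1, 2 and 3 and 0.0856, 0.121 and 0.0973 without YK-4-279 replicates 1, 2 and 3. With the replicate number as a block the adjusted p was 0.0563.

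In scrambled libraries TOP1MT held 2071, 2144 and 1999 counts and in siDHX9 libraries 2007, 1793 and 2486. siDHX9 replicate 3 was the highest and replicate 2 the lowest of the 6, so the groups overlapped. The difference was log2 0.00 with a 95% interval of −0.21 to 0.22 (limma adjusted p = 0.984). The drug's effect minus that of siDHX9 was 0.34 ± 0.14 (adjusted p = 0.147), with 0.47 without siDHX9 replicate 3 (adjusted p = 0.0123) and 0.23 without siDHX9 replicate 2 (0.227).

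TOP1 (GSHG0018748, hg19 chr20:39657458-39753127), the nuclear type IB enzyme that relaxes DNA ahead of RNA polymerase and is the target of topotecan and irinotecan, was not called in either comparison. It held 3806, 3254 and 3075 normalised counts in DMSO and 4147, 3646 and 4090 with YK-4-279. DMSO replicate 1 lay within the range of the drug-treated libraries. The difference was log2 0.23 ± 0.11 (95% interval −0.01 to 0.47, limma adjusted p = 0.185), and 0.0425 when only the 6 libraries of the comparison entered the fit.

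Scrambled libraries held 3401, 4114 and 3637 counts of TOP1, and siDHX9 libraries 2625, 3413 and 3173. The groups overlapped slightly, with siDHX9 replicate 2 above scrambled replicate 1, and the log2 difference was −0.28 ± 0.11 (95% interval −0.52 to −0.04, limma adjusted p = 0.0995). Without siDHX9 replicate 2 it was −0.36 (adjusted p = 0.0275), and without siDHX9 replicate 1 it was −0.17 (0.343). TOP1 thus had estimates of opposite sign in the 2 comparisons, which share no libraries. Their difference was 0.51 ± 0.16, with a limma adjusted p of 0.0569 and a DESeq2 adjusted p of 0.0318. With 1 library left out it was called without DMSO replicate 1 (limma adjusted p = 0.043) or siDHX9 replicate 2 (0.0223) and in none of the 10 other fits, where the adjusted p reached 0.134. For the difference of the 2 effects, 0 of 6 topoisomerases were called by limma, against 9.69% of all entries (4.4% higher, 5.29% lower). By edgeR 0 of 6 were called, beside 1473 of 14225 entries, and by DESeq2 2 of 6, beside 2081. TOP1, TOP2A and TOP1MT had unadjusted limma p values of 0.00616, 0.00669 and 0.032, and the share of all entries under 0.05 was not counted.

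TOP3A (GSHG0013163, hg19 chr17:18174745-18218406) is the type IA enzyme of the BLM complex, which takes apart joined DNA molecules, and it also works in mitochondria. It held 552, 496 and 479 normalised counts in DMSO and 523, 560 and 447 with YK-4-279. The groups lay over each other, with a log2 difference of 0.00 and a 95% interval of −0.27 to 0.27 (limma adjusted p = 1.00). In scrambled libraries it held 523, 687 and 527 and in siDHX9 libraries 551, 585 and 518, a difference of −0.06 (95% interval −0.34 to 0.21, adjusted p = 0.774). Replicate 2 was the highest scrambled library for TOP3A, as for the 5 other topoisomerases.

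TOP3B (GSHG0020228, hg19 chr22:22311398-22337240), the type IA enzyme that works on RNA as well as DNA together with TDRD3, was as even. It held 1371, 1440 and 1579 normalised counts in DMSO and 1662, 1602 and 1370 with YK-4-279, and the highest and the lowest of these 6 libraries were both drug-treated. The log2 difference was 0.08 (95% interval −0.14 to 0.29, limma adjusted p = 0.654). Scrambled libraries held 1646, 1880 and 1696 and siDHX9 libraries 1765, 1605 and 1857, a difference of 0.00 (95% interval −0.21 to 0.21, adjusted p = 0.996). Of the 4 intervals of the type IA genes, the one that reaches farthest from 0 is that of TOP3A with siDHX9.

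**Figure D3:**
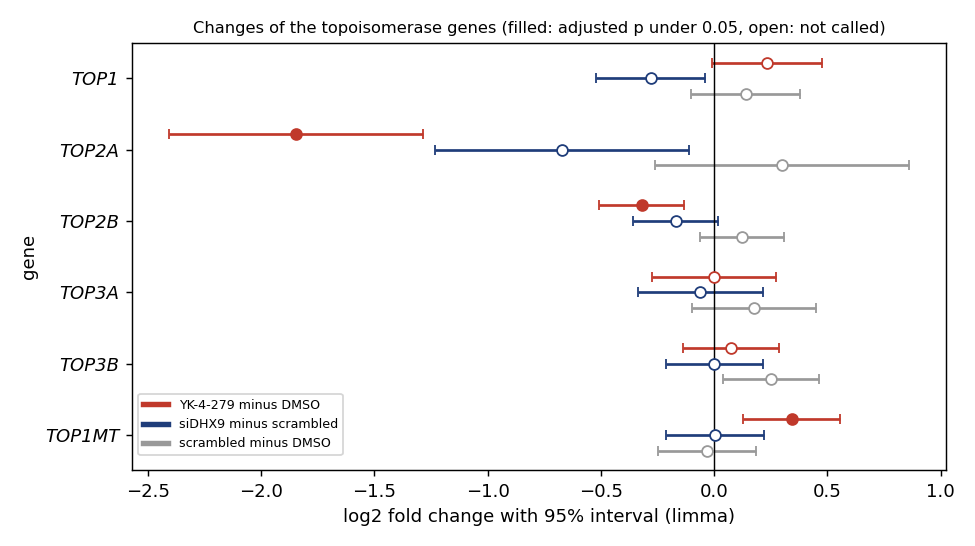
Log2 fold change (x axis) of each topoisomerase gene (y axis) in 3 comparisons, with 95% intervals from limma. Filled points are called at an adjusted p under 0.05: TOP2A at −1.85, TOP2B at −0.32 and TOP1MT at 0.34, each for YK-4-279 minus DMSO.

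The 2 control groups differ in transfection and in hours together, and these cannot be told apart. Between scrambled and DMSO libraries 0 of 6 topoisomerases were called by limma, edgeR or DESeq2, against 18.9% of all entries by limma. TOP3B had an unadjusted limma p of 0.0241, and the share of all entries under 0.05 was not counted. Scrambled libraries lay above all DMSO libraries for TOP3B and TOP2B, and the 2 groups did not overlap for 40.8% of all entries. TOP3B was at log2 0.25 ± 0.10 (limma adjusted p = 0.0902) and TOP2B at 0.12 ± 0.09 (adjusted p = 0.340). The difference of TOP2A was 0.30 ± 0.26 (adjusted p = 0.446) and −0.06 without scrambled replicate 2.

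Levels can be set against each other only per length, here as normalised counts per kb of the union of GENCODE 29 exons, on another build and annotation than the authors' counting. In DMSO TOP2B stood highest at 1390 ± 89.4 per kb (SD, n = 3), followed by TOP1 at 904 ± 102, TOP1MT at 328 ± 6.48 and TOP3B at 220 ± 16. TOP2A at 81.3 ± 10.2 and TOP3A at 78.6 ± 5.92 came last, and their libraries overlapped. With YK-4-279 TOP2A was alone at the bottom, at 22.4 ± 1.74 against 78.8 ± 8.88 for TOP3A, and TOP2B (1113 ± 70.7) and TOP1 (1060 ± 73.5) overlapped at the top. In scrambled libraries TOP2A stood at 106.8 ± 50.9 and TOP3A at 89.4 ± 14.5, and in siDHX9 libraries at 64.2 ± 19.1 and 85.1 ± 5.16, overlapping in both groups.

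Other neighbours held few reads or were not called in the drug and DHX9 comparisons. RARB overlaps TOP2B by 25 bases and had a mean of 0.745 normalised counts. PLCG1-AS1 overlaps 27.7% of the TOP1 entry with a mean of 7.69, and an unnamed entry within TOP1 had a mean of 19.3. SMCR8, whose entry lies 187 bases from that of TOP3A, was at log2 0.06 with YK-4-279 (limma adjusted p = 0.857). PPM1F, 4147 bases from TOP3B, was at 0.35 (adjusted p = 0.112), and it was higher in scrambled than in DMSO libraries by 0.51 (adjusted p = 0.0221). Entries that overlap TOP1MT or lie within 5 kb of it were unnamed and had a mean of 0.

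The gene lists from here on were chosen with earlier results of these data known. Their counts beside the shares of all entries are descriptions only. Condensin works with TOP2A to shape mitotic chromosomes. In a list of its 8 subunits and the motor KIF4A, 4 of 9 fell with YK-4-279 and 0 rose (6.49% and 7.33% of all entries), with a median log2 change of −0.52. NCAPG fell 1.68-fold, its mean being 6571 ± 355 in DMSO and 3918 ± 120 with the drug (SD, n = 3, limma adjusted p = 0.000102), and NCAPH, NCAPG2 and NCAPD3 fell by 0.66, 0.52 and 0.37 on the log2 scale. SMC4, an ATPase of both condensins that lies wholly within the TRIM59 and IFT80 entry, was at −0.75 (limma adjusted p = 0.0643). NCAPG overlaps LCORL over 10.7% of its span, and KIF4A overlaps DLG3 over 22.3%. The condensin subunit NCAPD2, with a mean of 7480, is overlapped over 100% of its span by GAPDH, with a mean of 204395. The count of 4 was the same with any 1 of the 6 libraries left out. With siDHX9, 3 of 9 fell (7.97% of all entries): SMC4 by 0.86, NCAPG2 by 0.49 and NCAPH by 0.26 on the log2 scale, with a list median of −0.26. NCAPG2 was called with any 1 of the 6 libraries left out (limma adjusted p 0.000138 to 0.00467). SMC4 and NCAPH were called without scrambled replicate 3 or siDHX9 replicate 2 and lost without any other, with adjusted p values of up to 0.135 and 0.114. Without siDHX9 replicate 2, 5 of 9 were lower and 1 higher, where 1971 of 14225 entries were lower and 2284 higher. KIF4A was at −0.53 (limma adjusted p = 0.0894). Between scrambled and DMSO libraries 0 of the 9 were called, where limma called 18.9% of all entries.

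Of 6 listed partners of the type IA enzymes 4 fell with YK-4-279 and 0 rose (6.49% and 7.33% of all entries), while TOP3A and TOP3B themselves gave no call. BLM, RMI1 and RMI2, which form the dissolvasome with TOP3A, and ERCC6L, a translocase of ultrafine DNA bridges, were the 4. BLM fell 1.83-fold, its mean being 2674 ± 144 in DMSO and 1464 ± 67.5 with the drug (limma adjusted p = 0.000102), and ERCC6L, RMI2 and RMI1 fell by 0.82, 0.68 and 0.65 on the log2 scale. The ERCC6L entry lies wholly within that of PIN4. Every fit with 1 of the 6 libraries left out gave 4 of 6. The list was chosen with earlier results known, so this count is a description only. The TOP3B partners TDRD3 and FMR1 were at −0.01 and 0.06 (limma adjusted p = 0.971 and 0.833). With siDHX9 2 of 6 fell (7.97% of all entries), FMR1, the fragile X RNA-binding protein, by 0.58 and RMI2 by 0.42 on the log2 scale. FMR1 was called without scrambled replicates 1 or 3 or siDHX9 replicate 2, and lost without the others (limma adjusted p up to 0.0768). RMI2 was called without scrambled replicate 2 or siDHX9 replicate 1, and lost without the others (up to 0.174). Between scrambled and DMSO libraries 1 of the 6 partners was higher and 0 lower, where limma called 18.9% of all entries.

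Of 12 genes that remove trapped topoisomerases from DNA or mend the breaks, 2 fell with YK-4-279 and 0 rose, with a list median of −0.10, where 6.49% of all entries fell. They were the nucleases of break ends, MRE11 (entry MRE11A, log2 −0.65, limma adjusted p = 0.00022) and its cofactor RBBP8, also named CtIP (−0.64, adjusted p = 0.000277). TDP1 and TDP2, the phosphodiesterases that free DNA ends from TOP1 and from TOP2, were at −0.01 and −0.18 (adjusted p = 0.968 and 0.251). With siDHX9 3 of 12 fell, where 7.97% of all entries did: ZNF451, a SUMO ligase that aids TDP2, by 0.79, LIG3 by 0.38 and PARP1 by 0.23 on the log2 scale. Between scrambled and DMSO libraries 3 of the 12 were higher and 2 lower, where limma called 18.9% of all entries. With siDHX9 ZNF451 was called with any 1 of the 6 libraries left out (limma adjusted p 0.0019 to 0.0397). LIG3 was called without scrambled replicate 3 or siDHX9 replicate 2, and PARP1 without scrambled replicate 1 or siDHX9 replicates 2 or 3, and both were lost without the others (up to 0.15 and 0.114). TOPBP1, a checkpoint protein named for binding a type II topoisomerase, fell with YK-4-279 by 0.61 on the log2 scale (limma adjusted p = 0.00104), and TOPORS, named for binding TOP1 and overlapped by SMIM27, was at −0.20 (adjusted p = 0.223). The meiotic relative SPO11 was listed at 0.

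**Figure D4:**
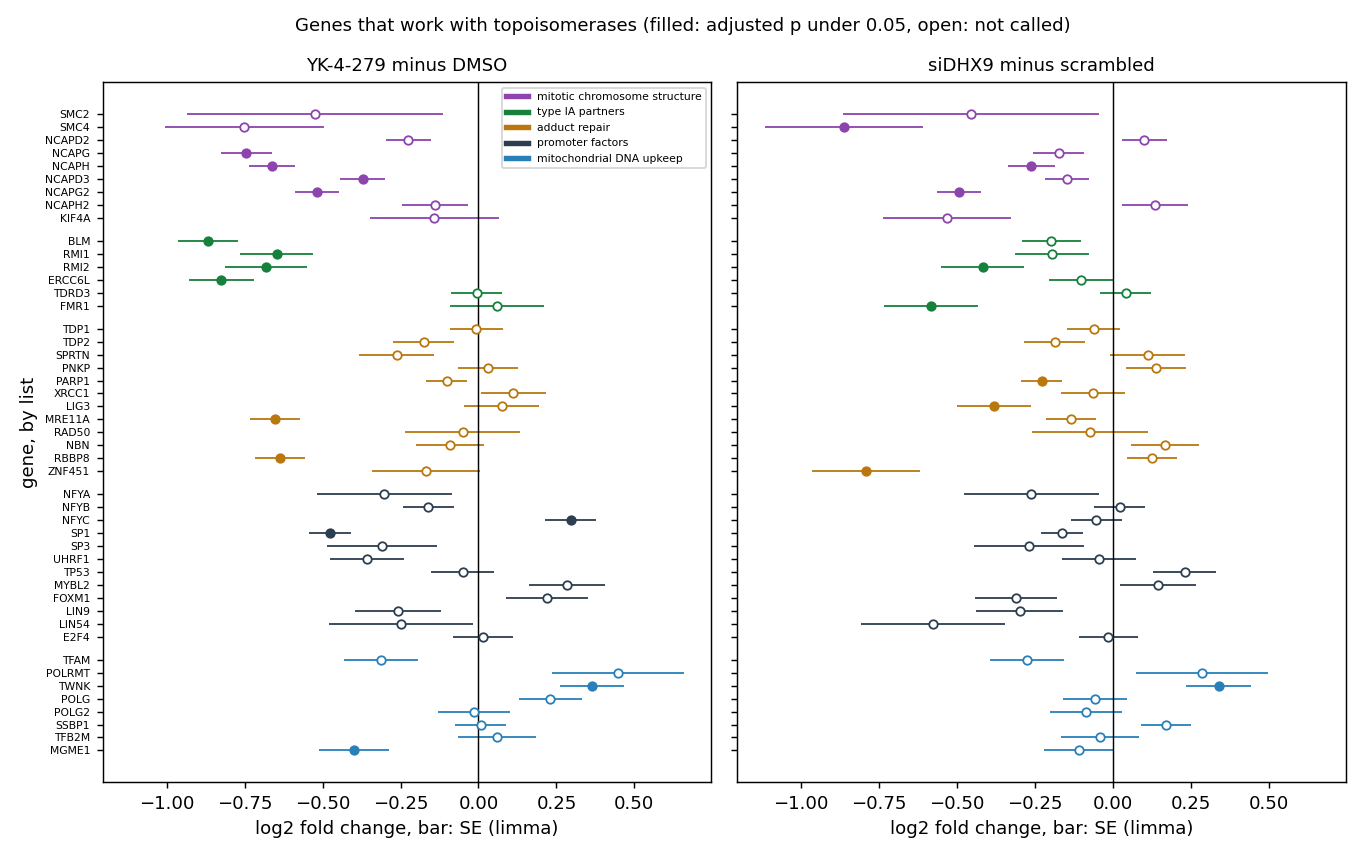
Log2 fold change with SE (x axis, limma) of the genes of 5 lists (y axis) with YK-4-279 and with siDHX9, filled where the adjusted p is under 0.05. With YK-4-279, 4 of 9 genes of mitotic chromosome structure and 4 of 6 type IA partners are filled, all to the left of 0.

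Of 12 listed factors that act at the TOP2A promoter shown above, 1 fell and 1 rose with YK-4-279, a share near the 13.8% called among all entries. SP1 fell by 0.47 on the log2 scale (limma adjusted p = 0.000644) and NFYC, a subunit of NF-Y, rose by 0.30 (adjusted p = 0.0293), a call lost with any 1 of the 6 libraries left out (0.0592 to 0.123). NFYA (overlapped by UNC5CL and OARD1 over 36.6% of its span) and NFYB, the other subunits, were at −0.30 and −0.16 (adjusted p = 0.381 and 0.206). MYBL2 and FOXM1, which drive mitotic genes with MuvB, were at 0.28 and 0.22 (adjusted p = 0.138 and 0.282). FOXM1 is overlapped by ITFG2 over 10.9% of its span. With siDHX9 0 of 12 were called by limma, edgeR or DESeq2, where limma called 16.7% of all entries. Of the 12, 5 had an unadjusted limma p under 0.05, and that share was not counted over all entries. LIN54, the MuvB subunit that binds the TTTGAA element, was at −0.58 with siDHX9 (adjusted p = 0.0988).

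Of 8 genes for the upkeep of mitochondrial DNA, where TOP1MT works, 1 rose and 1 fell with YK-4-279, with a list median of 0.03, where 7.33% of all entries rose and 6.49% fell. TWNK, the helicase of the mitochondrial fork, rose by 0.36 on the log2 scale (limma adjusted p = 0.0327) and MGME1, a mitochondrial nuclease, fell by 0.40 (adjusted p = 0.0324), and neither was called with 1 of the 6 libraries left out (limma adjusted p 0.0751 to 0.115 and 0.0527 to 0.144). TFAM, which packs mitochondrial DNA, was at −0.31 (adjusted p = 0.0935). With siDHX9 1 of 8 rose and 0 fell, where 8.75% of all entries rose and 7.97% fell. The 1 was TWNK (0.34, limma adjusted p = 0.0390). Its call was kept without scrambled replicate 3 or siDHX9 replicate 2 and lost without any other of the 6 libraries (up to 0.146).

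Among 9 proliferation genes, set beside TOP2A because it marks dividing cells, 6 fell and 1 rose with YK-4-279 (6.49% and 7.33% of all entries). Like the others, this list was chosen with earlier results known. The mitotic kinase CDK1 fell by 1.95 on the log2 scale, MKI67, which codes for the Ki-67 antigen, by 0.75 and the sliding clamp PCNA by 0.68, while the mitotic kinase PLK1 rose by 0.45 (limma adjusted p = 0.0237). PLK1 kept its call without DMSO replicate 3 and BUB1 (−0.29) without DMSO replicate 2, and both lost it without any other of the 6 libraries (limma adjusted p up to 0.106 and 0.126). CDK1 was the proliferation gene with a fall as large as that of TOP2A. With siDHX9 2 of 9 fell and 1 rose, where 7.97% of all entries fell and 8.75% rose. The mitotic checkpoint kinase BUB1 and PCNA fell, by 0.27 and 0.49, and MKI67 rose by 0.22 (limma adjusted p = 0.0484). TOP2A was at −0.67 and uncalled. PCNA was called with any 1 of the 6 libraries left out, and BUB1 and MKI67 only without scrambled replicate 3 or siDHX9 replicate 2 (limma adjusted p otherwise up to 0.122 and 0.151).

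Genes whose pattern over the 12 libraries was most like that of a topoisomerase were named by the smallest root mean square difference of centred log2 values among 10431 entries with a mean of at least 100. For TOP2A these were CKAP2L (0.33), KLF6 (0.36), OR4E2 (0.37), BRIP1 (0.37) and CDCA2 (0.40), where the median entry was at 0.90. Their log2 changes with YK-4-279 were −1.24 to −0.97, a description only, since nearness to TOP2A over these libraries selects genes that fall with the drug. CKAP2L is a protein of the mitotic spindle and BRIP1 a helicase of crosslink repair. For TOP2B the nearest was TOMM70, of the mitochondrial import machinery (0.05), for TOP1 TIMM23B (0.06), which has a near-identical copy, and for TOP1MT SMARCB1, a subunit of the SWI/SNF remodeller (0.04). For TOP3B it was MMS19 (0.06) and for TOP3A EFTUD2 (0.08). All these distances rest on the same 12 libraries and depth.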

How the data were processed

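RNA of 12 TC-71 libraries was sequenced, 3 in each of 4 groups taken from the labels, which state biological replicates. The authors deposited 1 table of signal values per gene, which the name of the table marks as DESeq-normalised counts. Per the submitters' processing notes the tools were FastQC, Picard, SAMtools, STAR 2.4.0 and DESeq, on hg19. The sources used here do not state strand or the handling of overlapping genes. The value of 1 read in a library was estimated from its lowest values. Division by it made 100% of values whole to within 0.1, and these reads served for depth, edgeR and DESeq2. Counting limits cover reads only, which are not independent molecules.

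Tests used the 14225 named entries averaging 10 or more, 591 of which name more than 1 gene. Values were fitted as log2(value + 1) in limma 3.58.1 (R 4.3.3), with group means, a trend of the variance with the mean and 8 residual degrees of freedom. Two-sided p values were adjusted by Benjamini-Hochberg over these entries. A gene was called at an adjusted p under 0.05. The script was tested on simulated data. Alternatives were edgeR 4.0.16 (quasi-likelihood), DESeq2 1.42.0, TMM factors, quantile normalisation, added values of 0.5 and 10, no minimum or a minimum mean of 50, only the libraries of a comparison, the replicate number as a block, and leaving out each library.

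The members and the gene lists were chosen with earlier results of these data known. Text names were limited to members, entries within 5 kb, list genes that were called, had the 3 largest changes or a described role, and the nearest patterns (5 for TOP2A, 3 for others). Promoter windows came from RefSeq, which matched 5 of 6 topoisomerases.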

Additional observations from a re-analysis of the deposited data

Results flagged for a closer look

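No topoisomerase gene passed the limma test of the difference between the YK-4-279 and the siDHX9 effect. Of 59 measured genes in 8 lists of genes that work with topoisomerases or mark division, 10 did, 9 with a lower effect of YK-4-279 and 1 with a higher one, which is what brought them here. Over all entries 9.69% were called in this difference, 5.29% as lower and 4.4% as higher. The lists were chosen with earlier results of these data known, so the count of 10 is a description only. All values that follow are the log2 effect of YK-4-279 minus that of siDHX9, with limma adjusted p values.

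The condensin subunits NCAPG and NCAPH differed by −0.57 (adjusted p = 0.00858) and −0.40 (0.0297). Of the partners of TOP3A, the helicase BLM differed by −0.67 (0.00812) and the bridge translocase ERCC6L by −0.72 (0.00874). The break-end nuclease MRE11 (entry MRE11A) differed by −0.52 (0.0121), its cofactor RBBP8 by −0.76 (0.00138) and the checkpoint protein TOPBP1 by −0.59 (0.0141). Among proliferation genes CDK1 differed by −1.89 (2.2e-06) and MKI67 by −0.97 (0.000149), while the cyclin CCNB1 differed by 0.35 (0.0195). The same difference for TOP2A was −1.18, larger in size than that of BLM but with an SE of 0.37, and its adjusted p was 0.0594. Of the 10 calls, 8 held in every alternative and with any 1 of the 12 libraries left out. That of NCAPH was lost after quantile normalisation (adjusted p = 0.0662), with the replicate block (0.053), and without DMSO replicates 1 or 2, scrambled replicate 1 or YK-4-279 replicates 1, 2 or 3, each alone (0.0603 to 0.0809). Leaving out DMSO replicate 2 also ended the call of CCNB1 (0.0628), as did leaving out the second drug-treated library (0.0528) or the third (0.0617).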

How the results depend on the processing

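TOP2A kept its call with YK-4-279 in all 10 other fits and all 6 that left out a library. TOP2B kept it in 10 of 10 and 1 of 6, and TOP1MT in 9 of 10 and 0 of 6. With only the libraries of a comparison, 4270 genes were called with YK-4-279, against 1965, and 492 with siDHX9, against 2378. DESeq2 called 2081 in the difference of the effects, against 1379. Leaving out 1 library gave 858 to 1151 genes with YK-4-279, 1244 to 4255 with siDHX9, 762 to 1883 for the difference and 1431 to 3332 for scrambled minus DMSO, against 2692. The log2 TOP2A to TOP2B ratio differed by −1.59 to −1.49 with YK-4-279 and by −0.75 to −0.14 with siDHX9. The causes were not tested.

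Effects near 0 changed sign. TOP3A with YK-4-279 was −0.0268 with TMM, −0.025 in edgeR and −0.0156 in DESeq2, and with siDHX9 0.0031 after quantile normalisation. TOP3B with siDHX9 was −0.0104 with TMM, −0.011 in edgeR and −0.0043 in DESeq2. TOP1MT with siDHX9 was −0.0077 with TMM and −0.00062 after quantile normalisation. With 1 library left out TOP3A ran from −0.0702 to 0.0916 with YK-4-279, from −0.13 to 0.0688 with siDHX9 and from −0.0688 to 0.15 in the difference, TOP3B with siDHX9 from −0.0461 to 0.0588, TOP1MT with siDHX9 from −0.13 to 0.11, and TOP2A in scrambled minus DMSO from −0.0632 to 0.55. Where an arm kept 2 libraries, the spread was pooled over all groups.

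With the replicate number as a block, 1601, 2118, 1118 and 2430 genes were called for YK-4-279, siDHX9, their difference and scrambled minus DMSO. TOP1MT with YK-4-279 was at an adjusted p of 0.0563, and TOP2A in the difference at 0.0443, also 0.0433 after quantile normalisation. Deviations of same-numbered libraries correlated at 0.12, 0.05 and −0.01 between DMSO and YK-4-279 and at 0.05, 0.06 and 0.08 between scrambled and siDHX9. The main fit did not use the numbers to pair libraries. Every scrambled and every siDHX9 library correlated best with its own number in the other group. Between DMSO and YK-4-279 this failed, with DMSO replicate 3 closest to YK-4-279 replicate 2 (0.08).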
